A study of Mus musculus with 2 samples.

Results

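CD8 T cells that carry reads of Pdcd1, the gene of the inhibitory receptor PD-1, were examined among the leukocytes of mouse tumours. The cells were selected on measured values. A cell was kept when it had at least 2 CP10k of Cd8a or Cd8b1, at least 1 CP10k of Trac and at least 0.5 CP10k of Pdcd1, where CP10k are reads of a gene per 10000 reads of the cell. It also had less than 1 CP10k of Foxp3, less than 5 CP10k of Lyz2 and less than 1 CP10k each of C1qa and Ncr1, which mark regulatory T cells, myeloid cells, macrophages and NK cells. This gave 192 Pdcd1 CD8 T cells of 7732 kept cells, out of 448 CD8 T cells in all. The other 256 CD8 T cells, below the Pdcd1 minimum, are called CD8 T cells without Pdcd1.

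The cells were CD45+ leukocytes of tumours that grew under the skin of wild-type BALB/c mice from Colon26, a colon carcinoma line of the mouse, and were taken on day 10. The 4 mice labelled minP1_PDL1 received both agents. The 3 mice labelled PDL1 received 200 µg of the anti-PD-L1 antibody 10F.9G2 into the peritoneum on days 4 and 8. The 4 minP1 mice received 0.08 µg of minP1, an immunostimulatory peptide of the nucleosome-binding protein HMGN1, into the peritoneum on day 9. The 3 Control mice were untreated. The labels call the cells intestinal, although the tumours were subcutaneous. Each of the 14 mice was marked by its own hashtag antibody and all barcodes carry 1 library name, while the labels also speak of separate runs without giving a run for any mouse. A run that differed between groups cannot be told apart from the treatment.

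A CD8 T cell that meets its antigen again and again in a tumour switches on PD-1 with other inhibitory receptors such as LAG-3 (Lag3) and TIM-3 (Havcr2) and is then called exhausted. PD-1 dampens signals of the T cell receptor when it binds PD-L1, the product of Cd274, on tumour or myeloid cells. A subset that retains TCF-1, the product of Tcf7, feeds the exhausted population and divides when the pathway is blocked, while cells with TIM-3 carry more granzymes and perforin.

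The selected cells numbered 15, 14, 8 and 8 in the minP1_PDL1 mice, 17, 9 and 16 in the PDL1 mice, 9, 13, 19 and 13 in the minP1 mice and 16, 18 and 17 in the Control mice. Their reads summed to between 485248 and 1701999 per mouse. A selected cell had a median of 66782 reads and 2842 genes, against 29609 reads and 1698 genes in CD8 T cells without Pdcd1 and 24077 reads and 1586 genes in regulatory T cells. With every cell thinned to 10000 reads, the medians were 1909, 1377 and 1324 genes. The size of the counts beside the number of genes is that of reads rather than molecules, though no source used here states which, so they are called reads; reads of 1 molecule are not independent, and intervals of shares cover counting error only. No barcode appeared under more than 1 hashtag.

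The label of the population was set beside its 4 markers, Cd8a, Pdcd1, Lag3 and Nrn1. Cd8a and Pdcd1 chose the cells, with medians of 9.35 and 4.47 CP10k, and 7 of the 192 cells had no Cd8a reads and entered through Cd8b1. Pdcd1 ran from 0.517 to 23.1 CP10k, on 1 to 200 reads per cell with a median of 24.5. The 3 cells just inside the minimum had 0.517, 0.568 and 0.589 CP10k, and the 3 just outside had 0.466, 0.430 and 0.418 CP10k. Under 1 CP10k lay 24 of the 192 cells, and 236 of the 256 CD8 T cells without Pdcd1 had no Pdcd1 read at all.

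Lag3 and Nrn1 were not part of the selection. Lag3 reached 0.5 CP10k in 128 of 192 selected cells, or 66.7% (95% Wilson interval 59.7 to 73.0%), against 28.1% (23.0 to 33.9%) of CD8 T cells without Pdcd1, 21.9% of regulatory T cells and 6.08% of macrophages. Nrn1, which encodes neuritin, a membrane-anchored protein induced in anergic T cells, did so in 33.3% (27.0 to 40.3%) of selected cells, against 11.7% (8.33 to 16.2%), 5.35% and 1.05% in the same 3 classes. Macrophages, which should lack both genes, were sequenced more deeply than the selected cells, with a median of 98991 reads. Since Cd8a and Pdcd1 chose the cells, only Lag3 and Nrn1 were free of the selection. The markers were chosen with earlier results of these data known, so their shares describe the cells and are no independent check of the label. Both were found in a larger share of the selected cells than of the other 3 classes, though in only part of them. Their summed levels did not pass the edgeR test against CD8 T cells without Pdcd1 given below (adjusted p = 0.114 and 0.180).

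The selected cells were not uniform. Among effector genes, Gzmb, the serine protease granzyme B of cytotoxic granules, reached 0.5 CP10k in 65.1% of them (58.1 to 71.5%). It did so in 48.8% of CD8 T cells without Pdcd1 (42.8 to 54.9%) and 40.7% of macrophages. Regulatory T cells stood close to the selected cells, at 63.5% (58.7 to 68.0%). Ifng, the cytokine interferon-gamma, reached that level in 59.9% of selected cells (52.8 to 66.6%), against 31.2% of CD8 T cells without Pdcd1 (25.9 to 37.2%) and 11.5% of macrophages. Gzma, granzyme A, was found in 14.6% of selected cells and 40.5% of macrophages, so its share lay below that background and is not read as expression. Gzmk, granzyme K, was found in 12.5% of selected cells and 1.05% of macrophages.

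Havcr2 was found in 45.3% of selected cells (38.4 to 52.4%), against 14.1% of CD8 T cells without Pdcd1 (10.3 to 18.9%); macrophages, which make TIM-3 themselves, stood at 24.9%. Tox, a nuclear factor needed by exhausted CD8 T cells, was found in 40.6% (33.9 to 47.7%), against 14.5% (10.7 to 19.3%) and 3.98% in macrophages. Regulatory T cells stood at 30.4% for Tox (26.2 to 35.0%). Tcf7 went the other way, with 13.0% of selected cells (8.98 to 18.5%) and 38.7% of CD8 T cells without Pdcd1 (32.9 to 44.8%), and macrophages at 13.2%. The Tcf7 share of the selected cells was therefore at the level of a cell type that should lack the gene. Cells with both Tcf7 and Havcr2 numbered 2 of 192, or 1.04% (0.286 to 3.72%). In these shares no test was run, and thinning to 10000 reads left each within 5 percentage points, for example 40.6% for Havcr2, 15.1% for Tcf7 and 64.6% for Lag3.

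The proliferation gene Mki67, which encodes Ki-67, was found in 42.2% of selected cells (35.4 to 49.3%), against 18.0% of CD8 T cells without Pdcd1 (13.8 to 23.1%) and 26.0% of macrophages. Mki67 and Havcr2 were found together in 39 of 192 cells, or 20.3% (15.2 to 26.6%), while CD8 T cells without Pdcd1 had 3.91% (2.14 to 7.04%). Cxcr6, a chemokine receptor of tissue T cells, was found in 50.0% (43.0 to 57.0%), against 30.9% (25.5 to 36.8%) and 6.08% in macrophages. Itgae, the integrin chain CD103 of epithelial resident T cells, reached the level in 1 of 192 cells, or 0.521% (0.0920 to 2.89%), against 5.08% of CD8 T cells without Pdcd1 and 32.8% of regulatory T cells. These shares varied widely between mice, for Havcr2 between 17.6% and 62.5% and for Mki67 between 12.5% and 69.2%.

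**Figure D1:**
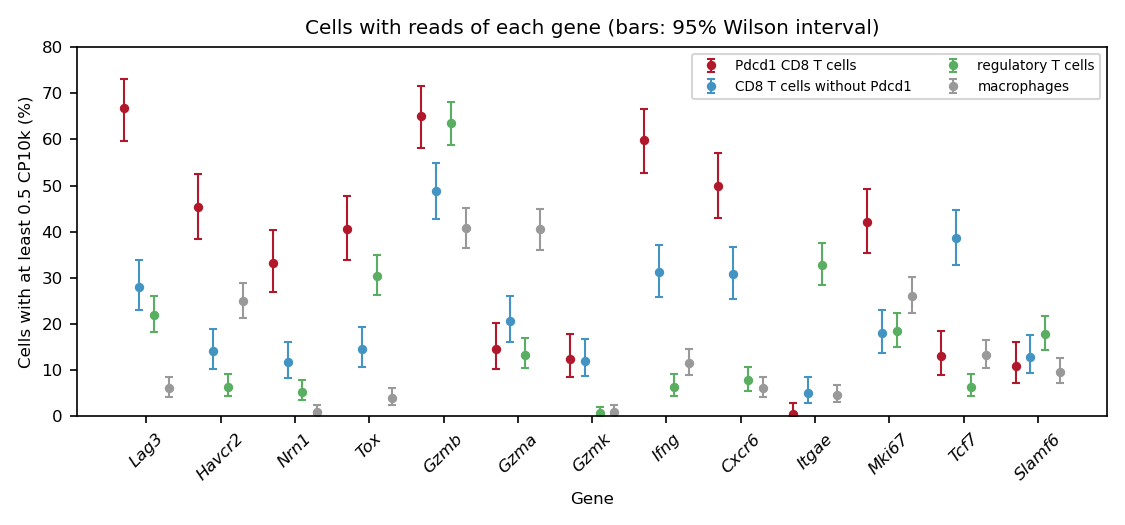
Percent of cells of each class with at least 0.5 CP10k of 13 genes. Points are shares over all cells of the class and bars 95% Wilson intervals, which do not cover the spread between mice. Lag3, Nrn1, Tox, Ifng and Cxcr6 stand highest in the Pdcd1 CD8 T cells, while Tcf7 stands at 13.0% there and at 38.7% in CD8 T cells without Pdcd1.

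The first comparison asked how the selected cells differed from CD8 T cells without Pdcd1 of the same mice. Summed reads per mouse were tested with edgeR, with the mouse as a block, over 6646 genes that exclude the 8 genes of the selection. In the selected cells 69 genes were higher, which is 1.04% of those tested, and 79 were lower, which is 1.19%. Among those that rose were the genes of perforin, TIM-3 and 4-1BB and 7 of 24 tested cell-cycle genes, and among those that fell were 6 of 13 tested genes of naive and memory cells and 5 of 13 of migration and residence. The median log2 change of all tested genes was 0.19, and after thinning to 10000 reads it was -0.00, so small positive changes lie near that shift. The count of higher genes rested on single mice: it was 37 and 44 without minP1_PDL1 mouse 1 or 2, 37, 37 and 40 without PDL1 mouse 1, 2 or 3, and 33 without minP1 mouse 1.

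Prf1, the pore-forming protein perforin, had the smallest adjusted p among the genes that rose. It ranged from 1.18 to 5.24 CP10k with a median of 3.70 in the selected cells of the 14 mice, against 0.319 to 2.50 with a median of 0.992 in CD8 T cells without Pdcd1. It was higher in 14 of 14 mice, although the 2 ranges overlap. The log2 change was 1.75 (SE 0.26, adjusted p = 3.5e-04).

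Havcr2 had 0.930 to 5.01 CP10k with a median of 2.52 in the selected cells, against 0 to 3.81 with a median of 0.674 in CD8 T cells without Pdcd1. It rose by a log2 change of 1.88 (SE 0.45, adjusted p = 0.0259), again in 14 of 14 mice. Tnfrsf9, the costimulatory receptor 4-1BB, had 3.61 to 8.28 CP10k with a median of 6.26, against 0.252 to 7.07 with a median of 2.86. Its log2 change was 1.11 (SE 0.27, adjusted p = 0.0285). Without minP1_PDL1 mouse 1 the adjusted p was 0.0544 for Havcr2 and 0.0657 for Tnfrsf9. The call of Tnfrsf9 was also lost without PDL1 mouse 3 or minP1 mouse 1 or 2, and with Pdcd1 at 2 CP10k or more (0.0753).

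Lgals1, the sugar-binding protein galectin-1, averaged 24.6 ± 5.54 CP10k in the selected cells and 15.0 ± 3.78 CP10k in CD8 T cells without Pdcd1 (SD, n = 14 each), with a log2 change of 0.73 (SE 0.12, adjusted p = 0.00156). Arl6ip1, which shapes membranes of the endoplasmic reticulum, averaged 11.8 ± 4.11 and 6.55 ± 2.99 CP10k, with a log2 change of 0.89 (SE 0.14, adjusted p = 0.00123). Both were higher in 14 of 14 mice.

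Of the 9 genes that rose in every mouse, 3 moved little. They were Actb, the cytoskeletal actin (log2 change 0.41), Gapdh, a glycolytic enzyme (0.52), and LOC108167548, which carries no description here (0.42). After thinning, the adjusted p of Actb was 0.0749 and that of LOC108167548 was 0.668, and both calls were lost. The call of LOC108167548 was also lost without any 1 of 12 mice (adjusted p up to 0.0963), and with Pdcd1 at 2 CP10k or more the adjusted p of Gapdh was 0.0514.

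The 10 genes of smallest adjusted p among those lower in every mouse were led by Zfp36l2, an RNA-binding protein that destabilises messenger RNA. It had 2.37 to 6.38 CP10k with a median of 3.54 in the selected cells, against 7.14 to 13.0 with a median of 8.86 in CD8 T cells without Pdcd1. The 2 ranges did not overlap, and the log2 change was -1.28 (SE 0.13, adjusted p = 7.5e-06). Btg1, an antiproliferative gene of resting lymphocytes, had 6.18 to 11.8 against 10.4 to 28.8 CP10k (log2 change -1.13). Stk17b, a kinase that raises the threshold of T cell receptor signals, had 3.17 to 8.20 against 7.63 to 15.0 CP10k (-1.03). Vps37b, a subunit of the membrane-sorting complex ESCRT-I, had 1.35 to 4.29 against 4.18 to 8.95 CP10k (-1.32), and Ifngr1, a chain of the interferon-gamma receptor, had 1.24 to 5.23 against 3.21 to 12.1 CP10k (-1.41). Adjusted p were between 1.4e-05 and 2.0e-04 for these 4, and all were lower in 14 of 14 mice.

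Of 13 tested genes of naive and memory cells, 6 fell, 0 rose and 7 did not pass, and the list median was -1.84, against 0.19 over all genes. Klf2, a transcription factor that maintains lymphocyte circulation, had 0.575 to 3.78 CP10k with a median of 2.24 in the selected cells, against 3.51 to 10.8 with a median of 7.65. Its log2 change was -1.84 (SE 0.22, adjusted p = 2.6e-05), and it was lower in 14 of 14 mice. Tcf7 averaged 0.484 ± 0.528 and 1.94 ± 1.37 CP10k (log2 change -2.50, SE 0.56, adjusted p = 0.0177, lower in 13 of 14 mice).

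Ly6c2, a surface protein of memory CD8 T cells and monocytes, averaged 2.40 ± 1.46 and 8.52 ± 3.49 CP10k (log2 change -1.93, adjusted p = 7.5e-06), and Ly6c1 averaged 1.80 ± 1.09 and 6.46 ± 2.95 CP10k (-1.94). Ly6c1 and Ly6c2 are near-identical copies, and how reads were divided between them is uncertain. Also among those that fell were Klf3 and S1pr1, the receptor by which lymphocytes leave tissue, which had reads in 6 of 192 selected cells and 45 of 256 others. Il7r, the receptor of the survival cytokine IL-7, did not pass, with 0.909 ± 0.713 and 2.31 ± 1.39 CP10k (log2 change -1.51, adjusted p = 0.0537).

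Migration and residence genes fell in 5 of 13 tested cases, rose in 0, and had a list median of -0.30. Cd69, an early activation antigen that also holds T cells in tissue, had 0.575 to 4.49 CP10k with a median of 3.05 in the selected cells, against 2.81 to 8.82 with a median of 7.39 (log2 change -1.50, SE 0.20, adjusted p = 8.5e-05). Cxcr4, the receptor of the chemokine CXCL12, had 0.0829 to 0.838 against 0.664 to 5.68 CP10k (log2 change -2.66, SE 0.35, adjusted p = 8.5e-05). Both were lower in 14 of 14 mice. The chemokine receptor Ccr2 and the oxysterol receptor Gpr183 fell by log2 changes of -1.82 and -1.17, each lower in 13 of 14 mice; the call of Ccr2 was lost after thinning (adjusted p = 0.0888) and that of Gpr183 without any 1 of 7 mice (up to 0.0729). The other gene that fell was Cxcr3, a receptor of interferon-induced chemokines. Cxcr6 did not pass (adjusted p = 0.397), at 2.11 ± 1.01 and 1.63 ± 0.838 CP10k.

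**Figure D2:**
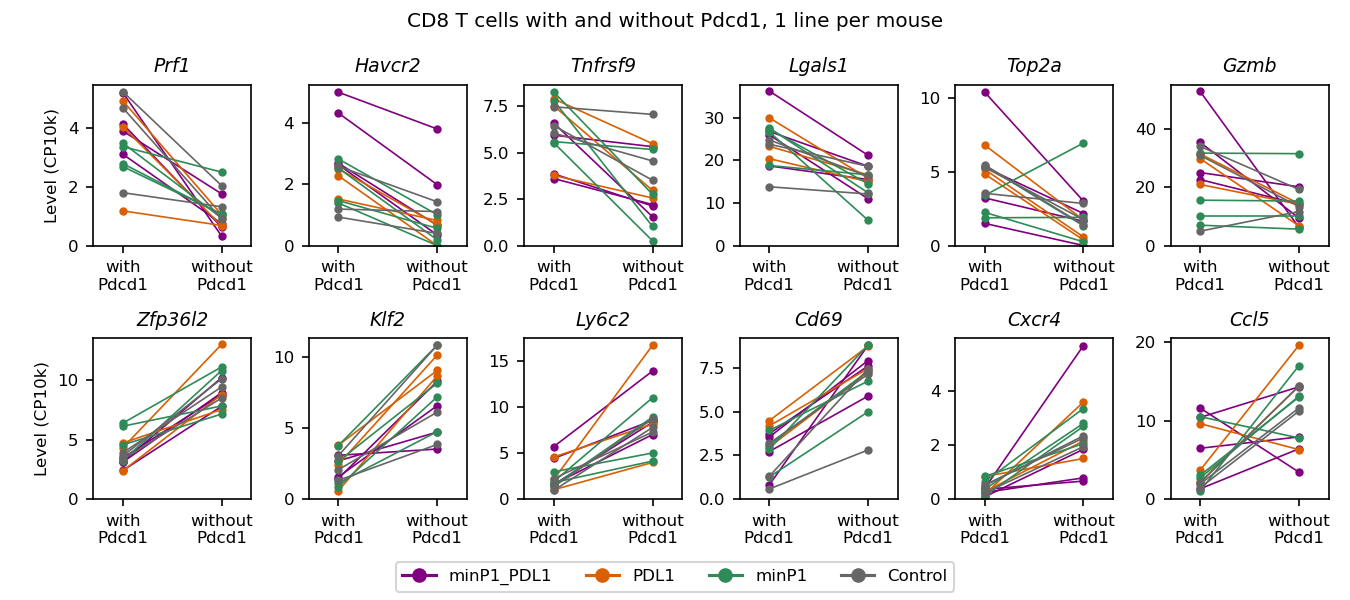
Level of 12 genes in CP10k of the summed reads of each mouse, in CD8 T cells with Pdcd1 (left) and without Pdcd1 (right); each line is 1 of 14 mice, coloured by group. Prf1, Havcr2, Tnfrsf9 and Lgals1 are higher on the left in every mouse, Zfp36l2, Klf2, Ly6c2, Cd69 and Cxcr4 lower in every mouse, and Ccl5 lower in 11 of 14 mice.

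Cell-cycle genes shared a direction. All 24 tested genes of the list had a positive log2 change, with a median of 1.49, and 7 of them rose while 0 fell and 17 did not pass. Top2a, the topoisomerase that untangles replicated DNA, had 1.50 to 10.4 CP10k with a median of 5.00 in the selected cells, against 0 to 6.95 with a median of 1.69. Its log2 change was 1.77 (SE 0.38, adjusted p = 0.0137), and it was higher in 12 of 14 mice. Pclaf, a partner of the replication clamp PCNA, averaged 4.10 ± 1.74 and 1.61 ± 1.27 CP10k (log2 change 1.84, adjusted p = 0.0124).

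Rrm1, a subunit of the enzyme that makes DNA building blocks, averaged 1.77 ± 0.592 and 0.636 ± 0.396 CP10k (log2 change 1.65, adjusted p = 0.0239). Hmgb2, a chromatin protein of dividing cells, averaged 13.9 ± 4.80 and 7.18 ± 3.38 CP10k (log2 change 0.98, adjusted p = 0.00836). The other 3 were Tubb5, Cdk1, the kinase that drives mitosis, and its cyclin Ccna2. Mki67 did not pass, at 3.02 ± 1.48 and 1.63 ± 1.35 CP10k (log2 change 1.03, adjusted p = 0.149). After thinning, the adjusted p were 0.0802 for Top2a, 0.0506 for Pclaf and 0.0771 for Rrm1, with log2 changes of 1.06, 1.39 and 1.37, and 0.0314 for Hmgb2. Without PDL1 mouse 1 or minP1 mouse 1 the adjusted p of Rrm1 was 0.0517 or 0.0572, and with a stricter lineage gate it was 0.0655. With Pdcd1 at 2 CP10k or more the calls of Pclaf (adjusted p = 0.0625) and Rrm1 (0.0733) were lost, while Top2a (0.0152) and Hmgb2 (0.0126) passed.

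Because these genes rose together, the 250 bases before the start of each were searched for 2 motifs of cell-cycle promoters, the CCAAT box and an E2F-type site, TTTNNCGC, on both strands. RefSeq promoters of the build GRCm38.p6 were found for 6 of the 7 genes. CCAAT was present in 6 of 6, against 33.8% of 32851 promoters of the same length, and TTTNNCGC was present in 1 of 6, against 4.28%. Top2a and Cdk1 are shown because they hold the most CCAAT boxes and the only E2F-type matches, with matches to either motif in capitals, which do not overlap each other. The Top2a window is chr11:99024190-99024439 on the minus strand and the Cdk1 window is chr10:69352913-69353162 on the minus strand.
Top2a: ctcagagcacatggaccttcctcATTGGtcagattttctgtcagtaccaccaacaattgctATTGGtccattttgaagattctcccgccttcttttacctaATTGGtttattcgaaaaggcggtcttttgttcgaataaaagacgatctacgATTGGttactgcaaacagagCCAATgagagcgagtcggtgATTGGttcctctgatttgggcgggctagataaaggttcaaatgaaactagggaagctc
Cdk1: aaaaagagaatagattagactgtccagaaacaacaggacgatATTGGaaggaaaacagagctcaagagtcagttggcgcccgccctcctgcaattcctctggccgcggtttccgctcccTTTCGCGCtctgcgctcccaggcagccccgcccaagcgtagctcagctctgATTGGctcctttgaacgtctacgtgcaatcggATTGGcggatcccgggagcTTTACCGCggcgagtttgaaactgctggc
A match describes these letters and says nothing of what binds there.

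Among 10 tested inhibitory receptors, Havcr2 alone rose and 0 fell, and the list median was 0.37. Lag3 had 1.20 to 6.86 CP10k with a median of 2.57 in the selected cells, against 0.312 to 2.60 with a median of 1.49, and was higher in 13 of 14 mice, but did not pass (log2 change 0.93, SE 0.30, adjusted p = 0.114). After thinning it passed (log2 change 1.33, adjusted p = 0.0409). Ctla4, a receptor that competes with CD28 for its ligands, averaged 5.79 ± 1.20 and 6.06 ± 2.31 CP10k (log2 change 0.00, adjusted p = 0.993). Tigit, a receptor of nectin-like ligands, averaged 0.312 ± 0.216 and 0.387 ± 0.220 CP10k (adjusted p = 0.769).

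Of 13 tested exhaustion regulators 0 rose and 0 fell, with a median of 0.08. Over all 6646 genes 1064 had an unadjusted p under 0.05, and DESeq2 called 856. Tox had 0.527 to 2.28 CP10k with a median of 1.38, against 0 to 2.43 with a median of 0.466 (log2 change 1.50, SE 0.44, adjusted p = 0.0749, higher in 12 of 14 mice). Nr4a2, a nuclear receptor induced by the T cell receptor, averaged 7.93 ± 3.54 and 6.09 ± 2.81 CP10k (adjusted p = 0.198). Of 14 tested genes of anergy and receptor feedback, Ptpn22, a phosphatase that brakes the T cell receptor, fell (2.02 ± 0.607 and 3.64 ± 1.29 CP10k, log2 change -0.84, adjusted p = 0.0234), 0 rose and the median was 0.16. Nrn1 averaged 2.04 ± 1.17 and 0.937 ± 0.705 CP10k and did not pass (log2 change 1.35, SE 0.52, adjusted p = 0.180). Among 10 costimulatory receptors Tnfrsf9 alone rose and 0 fell, with a median of 0.34.

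In the cytotoxic granule list 2 of 13 tested genes rose and 2 fell, with a median of 0.40. Beside Prf1, Serpinb6b, an inhibitor of granule proteases, rose (7.12 ± 1.90 and 4.02 ± 3.46 CP10k, log2 change 1.15, adjusted p = 0.0177, higher in 11 of 14 mice), but not with Pdcd1 at 2 CP10k or more (adjusted p = 0.253) or by limma (0.0622). Srgn, the proteoglycan on which granules store their enzymes, fell (16.1 ± 3.95 and 26.4 ± 8.07 CP10k, log2 change -0.68, adjusted p = 0.0131), as did Ctsw, the protease cathepsin W (log2 change -0.89, adjusted p = 0.0124); after thinning their adjusted p were 0.0816 and 0.291. Gzmb had 4.95 to 53.0 CP10k with a median of 27.5, against 5.64 to 31.6 with a median of 13.8, and did not pass (log2 change 0.77, SE 0.24, adjusted p = 0.0947). After thinning it passed (log2 change 0.81, adjusted p = 0.00659).

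Among 10 tested cytokines and chemokines 1 fell and 0 rose, with a median of 0.61. Ccl5, a chemokine stored by memory CD8 T cells, had 1.03 to 11.6 CP10k with a median of 2.85 in the selected cells, against 3.43 to 19.6 with a median of 12.3 (log2 change -1.66, SE 0.39, adjusted p = 0.0234, lower in 11 of 14 mice). The call was lost with Pdcd1 at 2 CP10k or more (adjusted p = 0.0556), by limma (0.143), and without minP1_PDL1 mouse 1, PDL1 mouse 2 or 3, minP1 mouse 1 or Control mouse 1 (0.0507 to 0.0539). Ifng averaged 5.84 ± 3.23 and 3.77 ± 2.76 CP10k (adjusted p = 0.240), and Ccl4, a chemokine that draws T cells and myeloid cells, averaged 7.13 ± 4.49 and 6.34 ± 5.03 CP10k (adjusted p = 0.725).

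Of 16 tested genes of glycolysis and hypoxia 3 rose and 0 fell, namely Gapdh, Ldha and Mif, with log2 changes of 0.52, 0.55 and 0.53, and the list median was 0.35. After thinning the adjusted p was 0.0602 for Ldha and 0.250 for Mif, and the call of Mif was also lost without any 1 of 12 mice (adjusted p up to 0.108). Of 17 immediate early and heat shock genes Hsp90aa1, a chaperone, rose (log2 change 0.48) and Zfp36, which destabilises messenger RNA, fell (-1.22, adjusted p = 0.0362), and the median was -0.51. The call of Hsp90aa1 was lost after thinning (log2 change 0.27, adjusted p = 0.395), with a stricter lineage gate (0.176), with Pdcd1 at 2 CP10k or more (0.179) and without any 1 of 4 mice (up to 0.0634). That of Zfp36 was lost with the stricter gate (adjusted p = 0.0965) and without any 1 of 9 mice (up to 0.0730). Of 13 tested genes of the type I interferon response 0 rose and 0 fell, with a median of -0.76.

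**Figure D3:**
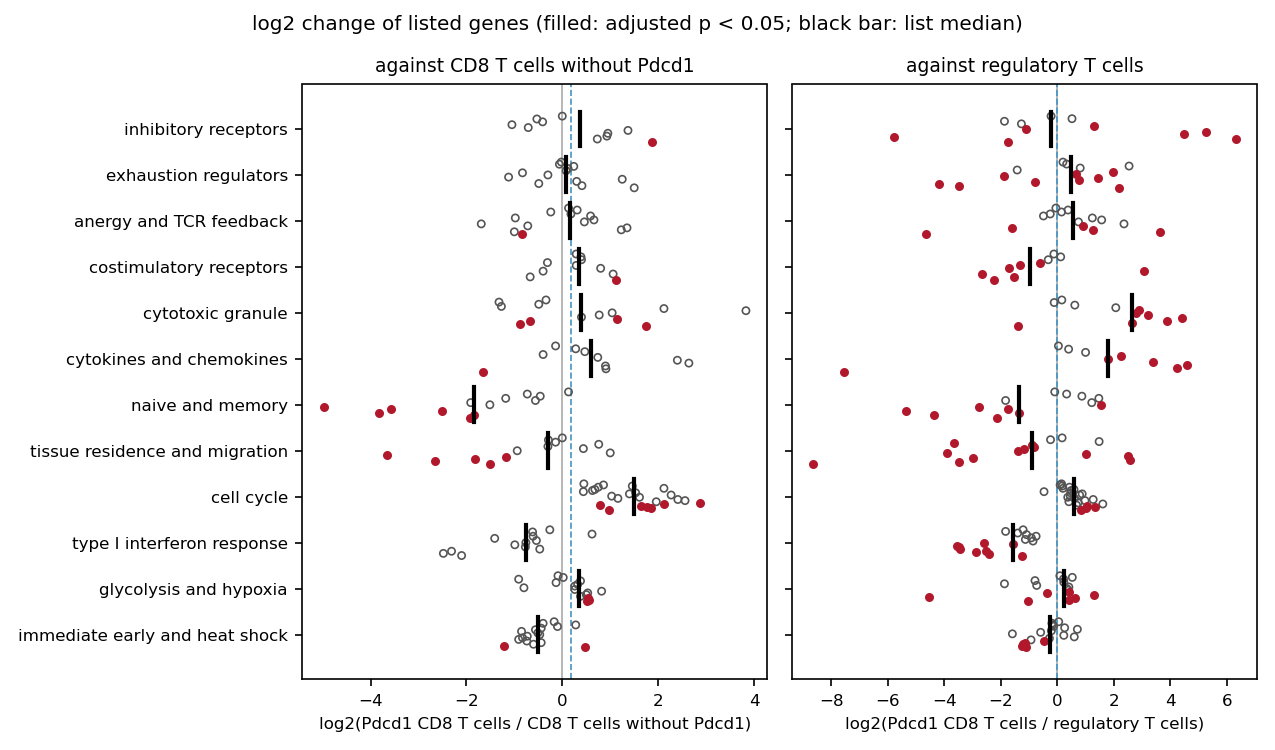
log2 change of each tested gene of 12 lists in Pdcd1 CD8 T cells, against CD8 T cells without Pdcd1 (left) and regulatory T cells (right). Filled points have an adjusted p under 0.05, black bars are list medians and the dashed line is the median of all tested genes; cell-cycle genes lie right of 0 and naive and memory genes mostly left of it in the left panel.

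Marker genes of other cells differed between these classes. All 11 macrophage and monocyte markers had reads in the selected cells, where their sum ran from 0.205 to 3.60 CP10k per mouse, against 0.938 to 8.65 CP10k in CD8 T cells without Pdcd1. Lyz2 and C1qa are among these markers and were capped by the selection in both classes, so the sums are partly set by it. Among the 79 lower genes were Itgam, an integrin of myeloid cells (0.135 ± 0.169 and 1.13 ± 0.995 CP10k, log2 change -3.21), and Arg1, the enzyme arginase (0.482 ± 0.825 and 4.59 ± 6.07 CP10k, log2 change -3.10), both named after their values were seen. The part of myeloid RNA in these changes was not tested. The NK list, which holds the likewise capped Ncr1, summed to between 0.539 and 10.1 CP10k, against 1.59 to 10.2 CP10k, with Klra8 and Klra4 at 0 in the selected cells. The 10 dendritic cell markers summed to between 1.04 and 32.8 CP10k, against 4.74 to 24.5 CP10k, with 10 of 10 detected. This list holds Ccr7, which is also in the naive and memory list and had 10579 reads in 105 of 192 selected cells. H2-Aa and H2-Ab1 had 3280 and 5271 reads, of which 90.5% and 86.2% lay in 5 cells. The sum is therefore not a measure of dendritic cell RNA alone.

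The second comparison set the selected cells beside 411 regulatory T cells of the same mice, gated on Foxp3. Of 7471 genes tested, 449 were higher in the selected cells, which is 6.01%, and 470 were lower, which is 6.29%. The gene of smallest adjusted p was Slc17a6, which encodes a vesicular glutamate transporter of neurons. It had 0.647 to 6.43 CP10k in the selected cells and 0 to 0.0196 CP10k in regulatory T cells, without overlap and higher in 14 of 14 mice (adjusted p = 1.1e-13). Reads of it were found in 80 of 192 selected cells and in 42 of 256 CD8 T cells without Pdcd1, where its level of 0 to 3.99 CP10k did not differ by the test (log2 change 1.56, adjusted p = 0.213).

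Several receptors differed between the selected cells and regulatory T cells. Klrc1, the inhibitory receptor NKG2A, averaged 10.7 ± 2.42 and 0.289 ± 0.398 CP10k (log2 change 6.32, SE 0.62, adjusted p = 3.8e-07), and its partner chain Klrd1 averaged 4.12 ± 1.19 and 0.225 ± 0.187 CP10k (4.58, SE 0.44, adjusted p = 3.2e-07). Havcr2 averaged 2.42 ± 1.15 and 0.258 ± 0.324 CP10k (4.50, SE 0.70, adjusted p = 1.2e-04), and Lag3 averaged 2.80 ± 1.51 and 1.31 ± 0.879 CP10k (1.31, SE 0.34, adjusted p = 0.0131), with overlapping ranges. Crtam, an adhesion receptor of activated CD8 T cells, averaged 1.47 ± 1.48 and 0.00735 ± 0.0121 CP10k. In the other direction Ctla4 averaged 5.79 ± 1.20 and 20.7 ± 5.92 CP10k (-1.74, SE 0.12, adjusted p = 4.2e-09), and Klrg1, a receptor of terminally differentiated cells, fell by a log2 change of -5.78. In all, 4 of 11 tested inhibitory receptors rose and 3 fell, with a median of -0.22.

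Of 11 tested granule genes 6 rose and 1, Srgn, fell, with a list median of 2.65 against -0.00 over all genes. Nkg7, a granule membrane protein, averaged 15.1 ± 2.89 and 3.02 ± 1.98 CP10k (log2 change 2.65), Serpinb6b 7.12 ± 1.90 and 0.635 ± 0.464 (3.89), and Prf1 3.61 ± 1.23 and 0.408 ± 0.741 (4.42), with adjusted p between 3.2e-07 and 1.2e-06. Gzmb did not pass (25.3 ± 12.9 and 16.0 ± 5.63 CP10k, adjusted p = 0.168). Ifng averaged 5.84 ± 3.23 and 0.355 ± 0.324 CP10k (log2 change 4.60, adjusted p = 2.0e-05) and Xcl1, a chemokine that attracts cross-presenting dendritic cells, 6.79 ± 5.59 and 0.880 ± 1.88 (4.23, adjusted p = 9.8e-06). Il10, an anti-inflammatory cytokine, was lower, with reads in 4 of 192 selected cells.

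Among regulators, Nr4a2 averaged 7.93 ± 3.54 CP10k in the selected cells and 1.88 ± 0.914 CP10k in regulatory T cells (log2 change 2.20, SE 0.16, adjusted p = 1.1e-08), while its relative Nr4a1 averaged 2.86 ± 0.860 and 5.06 ± 1.01 CP10k (-0.79, adjusted p = 6.0e-04). Of 14 tested exhaustion regulators 5 rose and 4 fell (median 0.49), and among those that fell were Ikzf2 (Helios) and Prdm1 (Blimp-1), at log2 changes of -3.47 and -4.19. Tox averaged 1.44 ± 0.455 and 1.32 ± 0.440 CP10k (adjusted p = 0.622). Nrn1 averaged 2.04 ± 1.17 and 0.314 ± 0.393 CP10k (3.62, adjusted p = 7.2e-05), and Cblb, a ubiquitin ligase that restrains T cells, 1.60 ± 0.410 and 0.755 ± 0.320 (1.25, adjusted p = 3.3e-04).

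Of 10 tested costimulatory receptors 6 fell and Cd226 alone rose, with a median of -0.97. Among those that fell were Tnfrsf4 (OX40) at 1.34 ± 0.691 and 6.05 ± 1.62 CP10k (log2 change -2.24), Icos at 5.89 ± 2.68 and 17.2 ± 3.88 (-1.53), and Il2ra, the IL-2 receptor chain that regulatory T cells carry, at 1.40 ± 0.673 and 8.52 ± 2.00 (-2.65). Of 17 tested interferon response genes 9 fell and 0 rose, with a median of -1.57. Of 15 tested migration and residence genes 9 fell and 3 rose (median -0.90), among them Itgae, at 0.00664 ± 0.0226 and 1.97 ± 1.17 CP10k with 12 reads in all selected cells, and Ccr2 (-3.47). Rgs16, which dampens chemokine receptor signals, rose (2.58), as did Cxcr6 (2.49) and Itgb1.

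The remaining lists were mixed. Of 24 tested cell-cycle genes 4 rose and 0 fell (median 0.60), of 13 naive and memory genes 1 rose and 6 fell (median -1.34), and of 9 cytokines and chemokines 5 rose and 1 fell (median 1.80). Of 17 glycolysis and hypoxia genes 4 rose and 3 fell (median 0.23), of 18 immediate early and heat shock genes 0 rose and 5 fell (median -0.25), and of 14 anergy genes 3 rose and 2 fell (median 0.56). Of the 5 cytokines that rose, Spp1 (osteopontin) is also a macrophage product and reached 78.4 CP10k in minP1_PDL1 mouse 3, against 1.17 to 19.1 CP10k in the other 13 mice.

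The third set of comparisons asked whether the treatments changed the frequency of the selected cells. They made up 2.69, 2.66, 1.64 and 1.46% of kept cells in the minP1_PDL1 mice, 3.52, 1.93 and 3.17% in the PDL1 mice, 1.60, 2.18, 2.62 and 2.02% in the minP1 mice and 3.31, 2.78 and 3.39% in the Control mice. Every minP1 mouse and every minP1_PDL1 mouse lay below every Control mouse, while the PDL1 mice overlapped them. The means were 2.11 ± 0.425% in minP1 mice (SD, n = 4) and 3.16 ± 0.331% in Control mice (SD, n = 3), a difference of -1.05 points that did not pass the two-sided exact permutation test (p = 0.0571, adjusted over 10 comparisons 0.286). In minP1_PDL1 mice the mean was 2.11 ± 0.654% (SD, n = 4), also -1.05 points from Control (exact permutation p = 0.114, adjusted 0.381). In PDL1 mice the mean was 2.88 ± 0.835% (SD, n = 3), a difference of -0.285 points from Control (exact permutation p = 0.700, adjusted 0.875).

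The groups were also compared within CD8 T cells, which do not depend on the abundance of other leukocytes. The selected cells were 51.7, 36.8, 38.1 and 50.0% of CD8 T cells in minP1_PDL1 mice, 48.6, 32.1 and 64.0% in PDL1 mice, 26.5, 41.9, 36.5 and 40.6% in minP1 mice and 50.0, 47.4 and 45.9% in Control mice. Only the minP1 mice lay entirely below the Control mice. Their mean was 36.4 ± 7.00% (SD, n = 4), against 47.8 ± 2.06% in Control mice (SD, n = 3), a difference of -11.4 points that did not pass (exact permutation p = 0.0571, adjusted 0.286). The minP1_PDL1 mean of 44.2 ± 7.78% lay -3.61 points from Control (n = 4 and 3, exact permutation p = 0.457, adjusted 0.762), and the PDL1 mean of 48.2 ± 15.9% lay 0.467 points from it (n = 3 each, exact permutation p = 0.900, adjusted 1.00).

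Over all 4 groups the exact permutation test of F gave p = 0.102 for the share of kept cells and p = 0.335 for the share of CD8 T cells. Without PDL1 mouse 2, which had the lowest share of its group on both scales, these p were 0.0247 and 0.0400. No other single mouse, when left out, brought either p under 0.05. Without Control mouse 3 the F for kept cells fell from 2.86 to 1.94, and without minP1 mouse 1 that for CD8 T cells fell from 1.29 to 0.595. Before adjustment, the smallest p the pairwise test allows is 0.0286 for 4 against 3 mice and 0.100 for 3 against 3. PDL1 against Control could therefore not reach the threshold even unadjusted. For any other pair, full separation of its mice alone could not bring the adjusted p under the threshold. Several comparisons would have had to lie at their smallest p together. The adjusted p of a single pair therefore cannot decide whether its share changed.

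**Figure D4:**
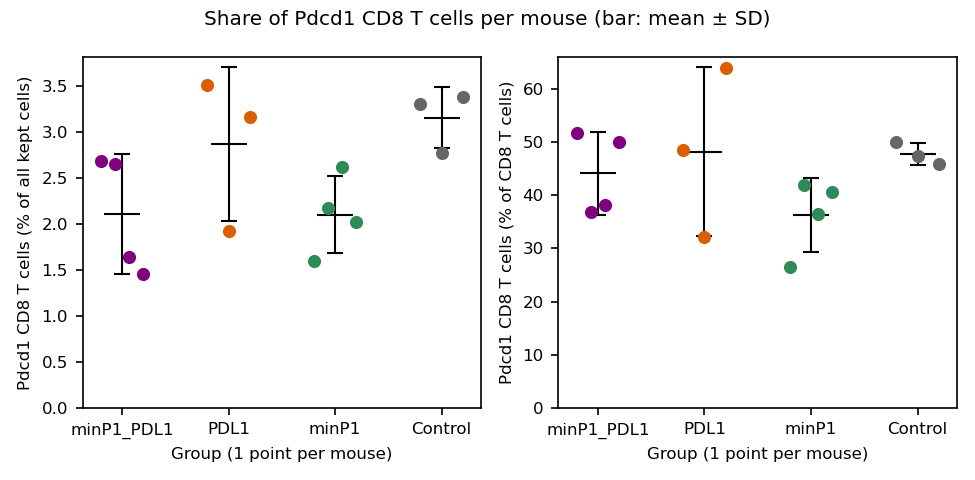
Share of Pdcd1 CD8 T cells per mouse, as percent of all kept cells (left) and of CD8 T cells (right), in the 4 groups; points are mice, bars mean ± SD. The 4 minP1 mice lie between 1.60 and 2.62% of kept cells, below the 3 Control mice at 2.78 to 3.39%.

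The level of Pdcd1 within the selected cells, which the selection shaped, is given as a description. It was 5.42, 4.32, 2.89 and 3.34 CP10k in minP1_PDL1 mice, 5.58, 2.64 and 2.76 in PDL1 mice, 6.74, 4.09, 4.20 and 4.47 in minP1 mice and 4.56, 4.85 and 3.40 in Control mice, with all groups overlapping. Cd274, the gene of the ligand that the antibody binds, lay between 0.118 and 1.39 CP10k over all mice in these cells.

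The fourth set of comparisons tested 9609 genes in the selected cells between treatments, again with edgeR on summed reads per mouse. In minP1 against Control, PDL1 against Control, minP1_PDL1 against Control and minP1_PDL1 against PDL1, 0 genes passed, as in the interaction of both agents. At an unadjusted p under 0.05 there were 248, 325, 432, 447 and 364 genes, and DESeq2 called 0, 3, 6, 8 and 5. Chance alone would put a share of about 0.05 of the 9609 genes under that p, which is more than any of these counts. In minP1_PDL1 against minP1 1 gene passed, which is 0.0104% of those tested, and DESeq2 called 7. An unadjusted p under 0.05 was found for 516 genes, close to the share that chance gives.

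That gene was Cndp2, a cytosolic dipeptidase. It had 0.0581, 0.163, 0.0824 and 0.108 CP10k in minP1_PDL1 mice, 0.483, 1.19 and 1.13 in PDL1 mice, 1.06, 1.94, 1.20 and 1.83 in minP1 mice and 0.749, 0.611 and 1.53 in Control mice. All 4 minP1_PDL1 mice lay below the 10 other mice, and how many other tested genes separate them was not counted. The log2 change against minP1 was -3.86 (SE 0.56, adjusted p = 0.0115), and it was -3.21 against both Control and PDL1 (adjusted p = 0.136 and 0.162). Reads were found in 11 of 45 selected cells of minP1_PDL1 mice, 18 of 42 of PDL1 mice, 23 of 54 of minP1 mice and 25 of 51 of Control mice. Over all mice 40.1% of the selected cells had Cndp2 reads, at 0.933 CP10k, against 79.7% of macrophages, at 3.42 CP10k. The macrophage and monocyte markers in the selected cells, among them the capped Lyz2 and C1qa, summed to 0.247 to 2.52 CP10k in minP1_PDL1 mice and 0.205 to 3.60 CP10k in minP1 mice. The part of macrophage RNA in the Cndp2 values was not tested. Without minP1_PDL1 mouse 1, 3 or 4, or without minP1 mouse 4, the adjusted p was 0.0969, 0.0622, 0.0667 or 0.0676, and the call was lost. Between CD8 T cells with and without Pdcd1 its log2 difference was 0.71 (SE 0.69, adjusted p = 0.668).

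After Cndp2, Nr4a2 had the smallest p in minP1_PDL1 against Control. It stood at 4.85, 6.58, 4.99 and 4.18 CP10k in minP1_PDL1 mice, 6.88, 5.98 and 5.90 in PDL1 mice, 9.78, 7.75, 7.56 and 8.87 in minP1 mice and 18.4, 9.75 and 9.61 in Control mice. Every minP1_PDL1 mouse lay below every minP1 and every Control mouse, but the change did not pass (log2 change -1.29, SE 0.24, adjusted p = 0.136). Pkp4, a protein of cell junctions, was the last of the 3 smallest p, at 0.290, 0.277, 0.536 and 0.269 CP10k in minP1_PDL1 mice, against 2.54, 1.70 and 1.35 in Control mice (log2 change -2.47, SE 0.48, adjusted p = 0.156). These groups did not overlap either. Both genes are named here for their small p, and how many of the 9609 tested genes separate these mice was not counted. The separation is therefore not read as a change.

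In minP1_PDL1 against PDL1 the genes beside Cndp2 were Satb1, an organiser of chromatin in T cells, and Tiparp, an ADP-ribosyltransferase. Satb1 had 2.07, 4.06, 5.01 and 4.63 CP10k in minP1_PDL1 mice, against 0.707, 1.33 and 0.783 in PDL1 mice, and Control mice had 1.97, 2.86 and 2.76 (log2 change 2.00, adjusted p = 0.791). Tiparp had 0.448, 1.50, 2.74 and 0.628 CP10k, against 0.0431, 0.0255 and 0.136 in PDL1 mice (log2 change 4.13, adjusted p = 0.791). Neither passed.

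For the single agents the genes of smallest p did not pass either. In minP1 against Control they were Cd200r1, an inhibitory receptor, Mt1, a metal-binding protein, and Dgcr6. Mt1 had 0.991, 3.05, 5.54 and 2.00 CP10k in minP1 mice, against 0.985, 0.563 and 0.355 in Control mice (log2 change 2.23, SE 0.61, adjusted p = 1.00). Dgcr6 had reads in 0 of 54 selected cells of minP1 mice, which allows a share of up to 5.56%, and in 6 of 51 of Control mice. In PDL1 against Control they were Socs2, a brake of cytokine signals, Rfng and Ubxn7. Socs2 had 0, 0 and 0.0503 CP10k in PDL1 mice, against 0.923, 0.683 and 1.01 in Control mice (adjusted p = 1.00). In the interaction they were Cd7, Cndp2 and Dgcr6 (adjusted p = 0.418, 0.418 and 0.634).

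Genes of exhaustion and killing did not pass in any treatment comparison. Gzmb had 53.0, 25.1, 35.5 and 22.7 CP10k in minP1_PDL1 mice, 31.5, 21.0 and 29.9 in PDL1 mice, 6.99, 31.8, 15.6 and 10.3 in minP1 mice and 4.95, 34.1 and 31.0 in Control mice. The lowest value of all was in a Control mouse, while the highest Control value of 34.1 lay above every PDL1 and every minP1 mouse. Havcr2 had 2.64, 5.01, 4.33 and 2.69 CP10k in minP1_PDL1 mice, 2.51, 1.52 and 2.28 in PDL1 mice, 1.39, 1.47, 2.83 and 2.53 in minP1 mice and 0.930, 2.59 and 1.19 in Control mice. Every minP1_PDL1 mouse lay above every Control mouse, a separation that was not counted over the other tested genes.

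Ccl4 had 7.99, 9.56, 6.18 and 1.80 CP10k in minP1_PDL1 mice, 11.6, 14.4 and 13.0 in PDL1 mice, 3.02, 4.11, 12.8 and 6.40 in minP1 mice and 0.937, 3.09 and 4.87 in Control mice. The PDL1 mice lay above the Control mice without overlap (log2 change 2.16, SE 0.59, adjusted p = 1.00). How many other tested genes separate these mice was not counted either. Ifng had 6.55, 5.82, 3.77 and 1.49 CP10k in minP1_PDL1 mice, 3.21, 1.79 and 7.73 in PDL1 mice, 3.95, 6.96, 5.96 and 10.7 in minP1 mice and 7.47, 3.56 and 12.8 in Control mice, with all groups overlapping.

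None of the 12 lists had a member that passed in any of the 6 treatment comparisons, Cndp2 being in no list. Over the 22 tested interferon response genes the median log2 change was 0.51 in minP1_PDL1 against Control, 0.46 in PDL1 against Control and -0.54 in minP1 against Control, beside -0.03, -0.01 and -0.02 over all genes. These comparisons share the Control mice. In minP1_PDL1 against minP1 the median of the same list was 1.04, with 18 of 22 genes above 0, beside -0.03 over all genes. Over 13 naive and memory genes the medians were -0.63, -0.28 and -0.35, and over 25 cell-cycle genes -0.10, -0.16 and -0.26. Marker sums of other cells in the selected cells varied by mouse: the 6 neutrophil markers summed to 0.204 to 2.33 CP10k in minP1_PDL1 mice, 0.243 to 1.21 in PDL1 mice, 0.391 to 6.36 in minP1 mice and 0.271 to 16.6 in Control mice. In minP1_PDL1 mouse 3 the stromal genes Mgp, Sparc and Col1a2 stood at 5.87, 3.61 and 1.96 CP10k, against at most 0.0176, 0.0586 and 0.0173 CP10k in the other 13 mice. The part of such reads in the treatment values was not tested.

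**Figure D5:**
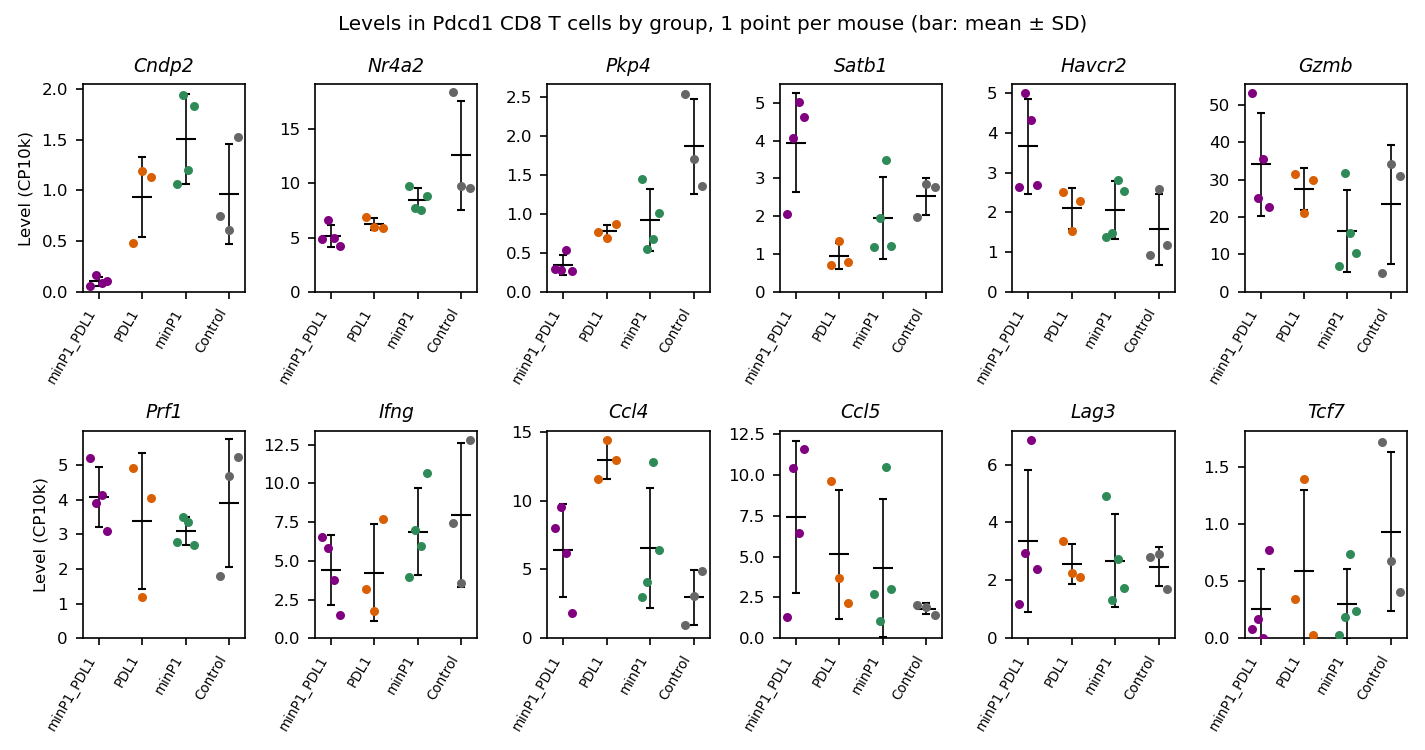
Levels of 12 genes in Pdcd1 CD8 T cells, in CP10k of the summed reads of each mouse, by group; points are mice, bars mean ± SD. Cndp2 lies at 0.0581 to 0.163 CP10k in the 4 minP1_PDL1 mice, below the other 10 mice. Nr4a2, which did not pass the test, is lower in minP1_PDL1 than in Control mice without overlap.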

How the data were processed

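Leukocytes of 14 mice were sequenced on the BD Rhapsody whole-transcriptome platform with a hashtag antibody per mouse. The authors deposited read counts for 22836 genes in 8262 barcodes, made with cutadapt 2.10, Bowtie2 2.3.4.1 and Seurat 2.3.4 on mm10, per the submitters' processing notes; whether reads were collapsed to molecules and the strand of counting are not given in the sources used here, and no collapsing was done on the deposited values. Of these columns 147 were not used, of which the authors named 141 doublets and 6 carried no hashtag; no doublet caller was run. Cells with over 25% mitochondrial reads (383) were removed, which left 7732, while the labels state 7613. Regulatory T cells had Trac at 1 and Foxp3 at 1 CP10k or more, both Cd8 genes under 2 and the myeloid and NK genes under the same limits; macrophages had Lyz2 at 5 and C1qa at 1 CP10k or more and Trac under 1.

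Reads were summed per mouse and class and tested with edgeR 4.0.16 (quasi-likelihood, TMM, filterByExpr, R 4.3.3, Benjamini-Hochberg over all tested genes, threshold 0.05, at least 5 cells per mouse), with the mouse as a block between classes. SE is the log2 change divided by the square root of F. Genes of the selection were left out of the tests. Shares were compared by two-sided exact permutation. Alternatives were DESeq2 1.42.0, limma 3.58.1 on log2 of mean CP10k plus 0.5, other scaling, filters, gates, thinning and leaving out each mouse. Self-tests ran on simulated counts. Named genes were, between classes, the 10 of smallest adjusted p in each direction with the same sign in every mouse and up to 4 called genes per list, and between treatments up to 5 called genes per direction or, with none, the 3 of smallest p, and a set always computed; others named for counts were picked with their values known. A few genes that this rule names are not reported here. The selection, the members and the gene lists were chosen with earlier results of these data known.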

Additional observations from a re-analysis of the deposited data

Results flagged for a closer look

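Of 55 sets of values tested, each 1 gene level or share in 1 group of 4 mice, 3 held a mouse that lay farther from the others than the 95% critical value of Dixon's ratio allows, and chance gives about 1 in 20. The Pdcd1 level of the Pdcd1 CD8 T cells was 6.74 CP10k in minP1 mouse 1, against 4.09 to 4.47 CP10k in the other 3 minP1 mice (ratio 0.858). The Tigit level was 0.517 CP10k in minP1 mouse 4, against 0.0425 to 0.0781 CP10k in the other 3 (ratio 0.925). The Itgae level was 0.00815 CP10k in minP1_PDL1 mouse 2 and 0 in the other 3 (ratio 1.00), a value made by 1 cell.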

How the results depend on the processing

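Between CD8 T cells with and without Pdcd1, DESeq2 called 536 genes higher and 320 lower, among them all 148 calls of edgeR. Higher calls numbered 216 with no low-count filter, 4 with at least 10 cells per mouse, 29 with Pdcd1 at 2 CP10k or more, 45 after thinning, and 33 to 94 with 1 mouse left out. The minimum of 10 cells in both classes left out minP1_PDL1 mice 3 and 4, PDL1 mice 2 and 3 and minP1 mouse 1. Lower calls numbered 20 with at least 10 cells and 49 by limma, which called 80 higher. Without the mouse block 54 were higher and 105 lower. In every one of these settings each call that was tested again had the same sign. Against regulatory T cells DESeq2 called 812 higher and 1006 lower, and 243 were higher with Pdcd1 at 2 CP10k or more.

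Between treatments, with no low-count filter, calls numbered 10 for minP1 against Control, 13 for PDL1 against Control, 35 for minP1_PDL1 against Control, 26 for minP1_PDL1 against minP1, 30 for minP1_PDL1 against PDL1 and 19 for the interaction. DESeq2 called 3, 6, 7, 8 and 5 in the last 5 of these. With Pdcd1 at 2 CP10k or more, minP1_PDL1 against Control gave 1. For minP1_PDL1 against minP1 the count was 0 with at least 10 cells or by limma and 0 to 2 with 1 mouse left out. The adjusted p of Cndp2 reached 0.854 and 0.528 in the first 2 of these. The minimum of 10 cells left out minP1_PDL1 mice 3 and 4, with 8 cells each, and PDL1 mouse 2 and minP1 mouse 1, with 9 each. The log2 change of Cndp2 was -3.89 with that minimum. The cause of the other changes was not tested.

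Of the differences in share, none of which passed, PDL1 against Control among CD8 T cells became -2.34 points with Pdcd1 at 2 CP10k or more, -1.02 after thinning and -0.354 with no mitochondrial filter, and ran from -7.41 to 8.51 with 1 mouse left out. With a stricter lineage gate, minP1_PDL1 gave -0.0132 points of kept cells against minP1, and 2.04 against Control and 0.780 against PDL1 among CD8 T cells. With 1 mouse left out, minP1_PDL1 against minP1 ran from -0.187 to 0.225 and PDL1 against Control from -0.607 to 0.187 points of kept cells, and minP1_PDL1 against PDL1 from -12.1 to 3.81 points of CD8 T cells. F over the 4 groups ran from 1.94 to 5.63 for kept cells and from 0.595 to 3.77 for CD8 T cells.

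Same-numbered mice of different groups correlated at -0.0531 to 0.0572 over 19 pairs, with a median of 0.00723, against -0.00268 for other pairs. Of 14 mice, 6 correlated best with a mouse of their own number. With so few cells per mouse, these values cannot decide whether the numbers pair the mice. With the replicate number as a block, 0 genes were called in 5 treatment comparisons and 1, Cndp2 (log2 change -3.87), in minP1_PDL1 against minP1. With 8 to 19 Pdcd1 CD8 T cells per mouse, genes read in few cells vary strongly between mice.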

Other observations

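Beyond the lists, Irf8, a transcription factor of myeloid cells that activated CD8 T cells also use, was higher in Pdcd1 CD8 T cells than in CD8 T cells without Pdcd1 (7.83 ± 2.90 and 3.67 ± 1.93 CP10k, SD, n = 14 each, log2 change 1.18, adjusted p = 0.0168 by edgeR). It had reads in 156 of 192 cells. Cst7, the protease inhibitor cystatin F, was higher too (3.03 ± 1.05 and 1.38 ± 0.634 CP10k, log2 change 1.19, adjusted p = 0.0116). Malat1, a nuclear noncoding RNA, was lower (3.14 ± 1.11 and 7.19 ± 2.03 CP10k, log2 change -1.21, adjusted p = 1.9e-04). These 3 genes were chosen after their values were seen.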
